A study of Sus scrofa with 24 samples.

Results

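The genes described here code for 9 proteins of the postsynaptic side of excitatory synapses. Among them are the scaffold proteins DLG4, SHANK1, SHANK2, SHANK3, HOMER1 and DLGAP1. The others are the spine regulators SIPA1L1, SIPA1L2 and SIPA1L3. They were found by matching the Entrez identifiers in the count files to pig gene symbols, and they are 9 of 38882 listed genes. All 9 passed the filter of at least 1 CPM (read count scaled to the library total) in at least 3 libraries. SIPA1L3 was selected on its own measured size difference in these libraries, in which it was higher in small piglets, so its size differences are given as a description with no test. Hippocampi were taken at day 14 from 24 crossbred piglets (PIC Camborough dam, PIC 359 sire), and the polyadenylated RNA was sequenced. Piglets were small (SGA) or appropriate (AGA) for gestational age and received a control formula (CON) or a formula with hydrolyzed fat (HF), in which part of the triglyceride was replaced by free fatty acids, monoacylglycerol and lecithin. Each of the 4 combinations of size and diet held 6 piglets. An SGA and an AGA piglet of the same diet and replicate number were sex-matched littermates, which gave 12 numbered pairs, each called a litter here. Replicates 1 to 3 and 4 to 6 came in 2 cohorts. SGA status was given by birth weight in natural litters, and all groups were formula fed after an initial period with the sow.

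At an excitatory synapse, DLG4 (PSD-95) anchors glutamate receptors beneath the membrane. DLGAP proteins link DLG4 to the SHANK proteins, and SHANK proteins bind HOMER proteins, which connect to metabotropic glutamate receptors. The SIPA1L proteins are GTPase-activating proteins for the small GTPase Rap, and SIPA1L1 (SPAR) binds DLG4 and acts on the actin of dendritic spines. The hippocampus is rich in such synapses.

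In the Sscrofa10.2 build of the files, SIPA1L3 (identifier 100514291) lies on the minus strand at chr6:42522564-42598357, with 14 exon blocks and 4723 counted exon bases. SHANK1 (100512353) lies on the same strand at chr6:51348953-51395795, with 25 exon blocks and 8975 counted bases. SIPA1L1 (100157762) lies at chr7:101036283-101416110 and SIPA1L2 (100158048) at chr14:62424381-62588239. The models of HOMER1 (chr2:89846977-89996112) and SHANK2 (chr2:924313-1073976) are short, with 1266 and 2010 counted bases. SHANK3 lies on an unplaced scaffold. SIPA1L1 shares 60 exon bases with a gene on the opposite strand that held 71 reads over all 24 libraries.

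Total counts ranged from 6017336 to 9284355 per library. Of 9 neuronal markers, 7 were in the files, and no marker of any list in the files was at 0 throughout. Their summed level had medians of 7418 (AGA) and 8042 CPM (SGA) on the CON diet, and of 7204 (AGA) and 7309 CPM (SGA) on the HF diet. AGA CON replicate 2 and AGA HF replicate 4 stood apart at 3916 and 4720 CPM, the lowest of the 24, and had the highest summed astrocyte and microglia markers. SGA CON replicate 6 had the highest neuronal sum, 9102 CPM, and the highest thalamic sum, 97.9 CPM. All 6 oligodendrocyte markers had a fitted size difference below 0, with a median of −0.16 on the log2 scale, and none was called. Their summed medians were 21006 (AGA) and 16016 CPM (SGA) on the CON diet, and 21731 (AGA) and 17576 CPM (SGA) on the HF diet. Of the other lists, 5 of 7 neuronal, 4 of 5 hippocampal, 2 of 6 astrocyte, 2 of 6 microglia, 2 of 3 endothelial, 2 of 4 choroid plexus, 1 of 4 meningeal and 2 of 3 thalamic markers tested were above 0 for size, with none called. Fewer cells of a type and less RNA per cell cannot be told apart in whole tissue. The part of these cell type differences in the results below was not tested, and counts are also given without the 3 libraries named.

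The genes spanned a wide range of levels per kilobase of counted exon (RPKM). SHANK1 was the most abundant, with a median of 215 RPKM over the 24 libraries. DLG4 followed at 155 RPKM and DLGAP1 at 41.6 RPKM. Each of these 3 was above the next in every library. SHANK3 (17.6 RPKM) and SIPA1L1 (16.0 RPKM) were close, and SHANK3 was the higher in 17 of 24 libraries. SIPA1L3 had a median of 12.3 RPKM and was below SIPA1L1 in 23 of 24 libraries. SIPA1L2 (1.62 RPKM) and HOMER1 (1.61 RPKM) could not be ordered, with SIPA1L2 the higher in 13 of 24. SHANK2 was the lowest at 0.951 RPKM. This order depends on the gene models counted. In the files SHANK2 spans 149664 bases, against 499107 in the Sscrofa11.1 gene table. DLGAP1 spans 206033 against 866754 and SIPA1L3 75794 against 191474. SIPA1L2 and SHANK3 are also shorter in the files, and the other genes are not. Reads on missing exons would not be counted. The effect of the models and of RNA quality on the order was not tested. The spread between libraries was smallest for SIPA1L1 (coefficient of variation 9.93%) and DLG4 (9.99%) and largest for HOMER1 (49.0%). HOMER1 rested on 4 to 30 reads per library and SHANK2 on 3 to 23, where counting error alone gives a coefficient of variation of 25.6% and 27.6%. Their values are therefore imprecise.

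**Figure D1:**
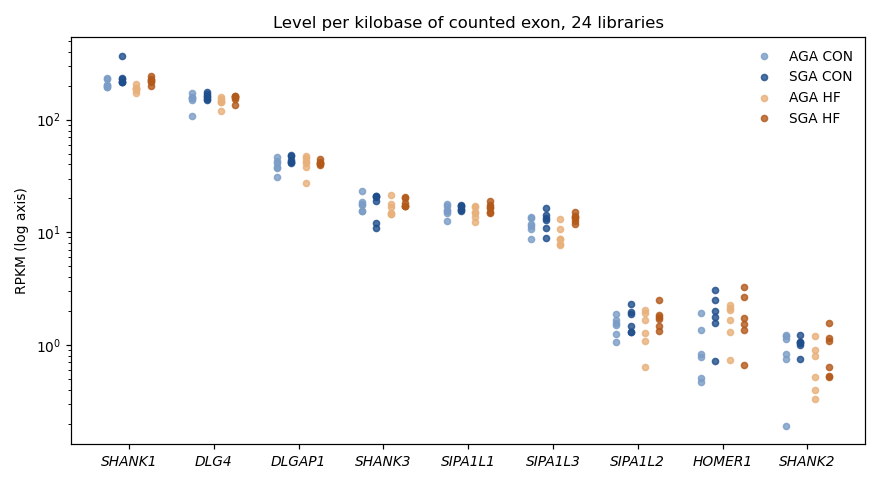
Level of each gene per kilobase of counted exon (RPKM, log axis) in the 24 libraries, coloured by group, with 1 point per library. The genes fall from SHANK1 (median 215 RPKM) to SHANK2 (median 0.951 RPKM), and SIPA1L2 and HOMER1 overlap.

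SIPA1L3 was higher in SGA than in AGA piglets, the pattern for which it was chosen. In AGA CON it had a lowest value of 41.1, a median of 54.4 and a highest of 65.0 CPM. Their SGA littermates had 41.7, 61.9 and 77.3 CPM. The AGA HF piglets had 36.2, 41.3 and 61.7 CPM, against 56.5, 64.1 and 71.2 CPM in SGA HF. The CON groups overlapped over most of their range. On the HF diet 4 of 6 SGA piglets lay above every AGA piglet and 5 of 6 AGA piglets lay below every SGA piglet. The means were 54.8 ± 8.76 (AGA) and 60.3 ± 12.3 CPM (SGA) on the CON diet, and 44.7 ± 9.79 (AGA) and 63.6 ± 5.12 CPM (SGA) on the HF diet (SD, n = 6).

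Between littermates, the SGA piglet had the higher SIPA1L3 level in 10 of 12 litters, by a mean of 0.33 ± 0.41 (SD) on the log2 scale. Both exceptions were CON litters of the second cohort, with replicate 4 at −0.04 and replicate 6 at −0.64. The difference averaged 0.13 ± 0.43 in the 6 CON litters and 0.53 ± 0.31 in the 6 HF litters. The medians were 0.27 (CON) and 0.57 (HF), and the CON mean leans on replicate 6. The SGA library of that litter had the highest thalamic marker sum of the 24 (97.9 CPM). The SIPA1L3 difference was above 0 in 6 of 6 litters of the first cohort (mean 0.37) and in 4 of 6 of the second (mean 0.29). The widest gap was in HF litter replicate 6, where the AGA piglet had 36.2 and the SGA piglet 71.2 CPM. That AGA library had the highest meningeal marker sum of the 24 (111 CPM) and a thalamic sum of 85.5 CPM. Over the libraries SIPA1L3 correlated at −0.46 with the thalamic, −0.44 with the meningeal and 0.44 with the hippocampal sum. Correlations with the other sums ran from −0.37 (microglia) to 0.26 (neurons). The part of tissue composition in these gaps was not tested. The fitted size difference, with sex and 5 surrogate variables in the model, was 0.36 ± 0.08 (SE), a 1.28-fold higher level. Without the 3 libraries that stood apart it was 0.28.

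**Figure D2:**
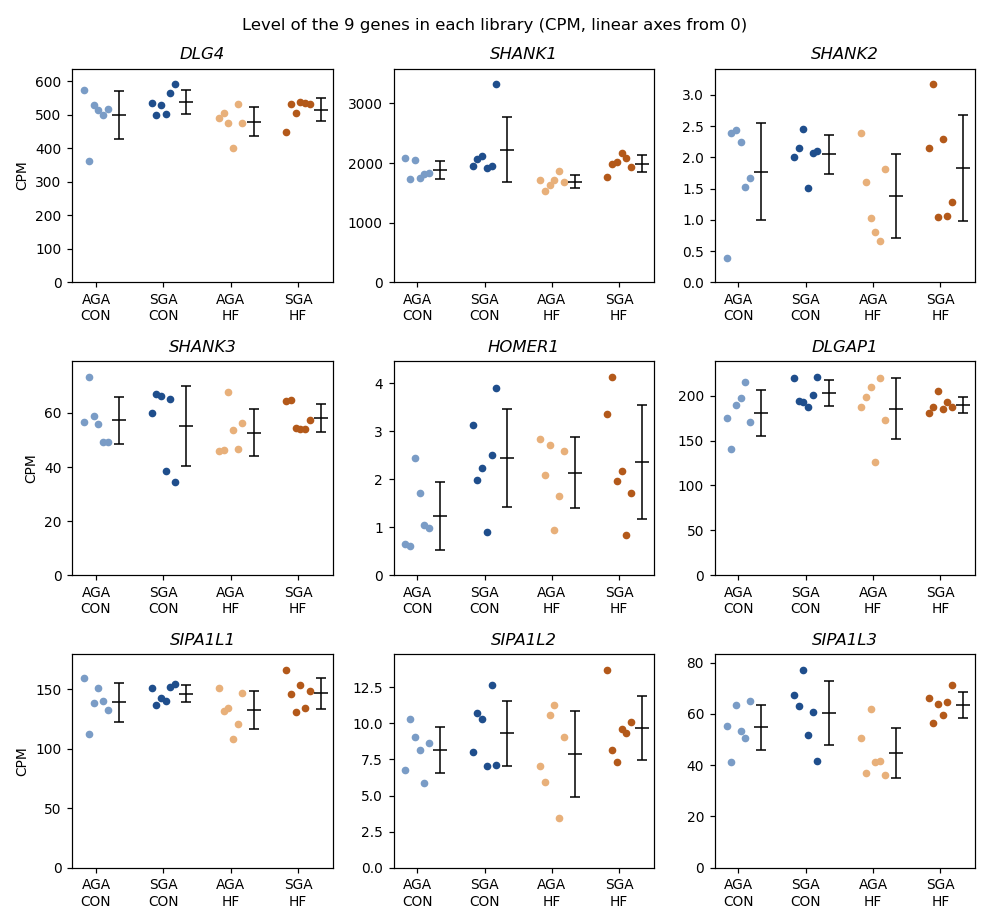
Level of the 9 genes (CPM, linear axes from 0) in each library, with 6 points per group in order of replicate number and black bars for the mean ± SD. SIPA1L3 in AGA HF has a median of 41.3 CPM against 64.1 CPM in SGA HF, and SGA CON replicate 6 stands out for SHANK1 at 3318 CPM.

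The other SIPA1L genes were not called in any comparison. SIPA1L1, which was about as abundant per length as SHANK3, had 113, 139 and 159 CPM as the lowest, median and highest value in AGA CON, and 137, 147 and 155 CPM in SGA CON. On the HF diet the AGA piglets had 109, 133 and 151 CPM and the SGA piglets 131, 147 and 167 CPM. The 4 groups overlapped. The SGA littermate was the higher in 9 of 12 litters (mean 0.12 ± 0.17), while the fitted size difference was −0.0044 ± 0.036 (SE). With litter as a block in place of the surrogate variables it was 0.12 ± 0.05, with an FDR p of 0.609, so its sign depends on the model. SIPA1L2, the least abundant of the 3, had medians of 8.42 (AGA) and 9.16 CPM (SGA) on the CON diet, with ranges of 5.84 to 10.3 and 7.07 to 12.6 CPM. On the HF diet its medians were 8.07 and 9.50 CPM, with ranges of 3.45 to 11.2 and 7.29 to 13.7 CPM. Its size difference was 0.22 ± 0.13, with a 95% interval from −0.03 to 0.48 and an FDR p of 0.794 in edgeR's quasi-likelihood test. The SGA piglet was the higher in 8 of 12 litters.

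Of the 8 genes tested in all 7 contrasts, which leaves out SIPA1L3, SHANK1 was called between the HF groups and no other call was made. SIPA1L3 was not called in the 4 contrasts in which it was tested. SHANK1 had lowest, median and highest values of 1534, 1697 and 1862 CPM in AGA HF and of 1768, 1999 and 2172 CPM in SGA HF. In AGA CON these were 1738, 1829 and 2092 CPM, and in SGA CON 1921, 2010 and 3318 CPM. On the HF diet 5 of 6 SGA piglets lay above every AGA piglet, and on the CON diet 2 of 6 did. The highest SGA CON value came from replicate 6, while the other 5 SGA CON libraries lay within or just above the AGA CON range.

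SHANK1 was 1.20-fold higher in SGA HF than in AGA HF piglets, a log2 difference of 0.27 ± 0.07 (SE). The edgeR quasi-likelihood FDR p over all genes and 7 contrasts was 0.339, below the threshold of 0.4 that the study used to display DEGs. This threshold is lenient and allows a large share of false calls. In this contrast 1 of 8 genes was called, beside a background of 0.594% of the 16326 genes tested (97 genes), and 8.11% had an unadjusted p under 0.05, as SHANK1 alone of the 8 did. The members were chosen with earlier results of these data known, so such shares are a description and no test of the set. With litter as a block the difference was 0.24 with an FDR p of 0.547, which ends the call. The call was kept without the 3 libraries that stood apart (0.24, FDR p 0.339). It was lost when any of 13 libraries was left out, with FDR p from 0.167 to 0.631 over the 24 fits. These were AGA CON replicates 1, 3, 4 and 6, AGA HF replicates 1 and 5, SGA CON replicates 1, 3 and 5, and SGA HF replicates 3, 4, 5 and 6. Within the cohorts the difference was 0.23 and 0.21, with no call in either, where 0 of all genes were called.

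Across both diets SHANK1 was higher in the SGA littermate in 11 of 12 litters, by 0.22 ± 0.24 (SD), including 6 of 6 HF litters. The exception was CON litter replicate 1, with 2092 CPM in the AGA and 1952 CPM in the SGA piglet. The fitted size difference was 0.17 ± 0.05 (SE), and its FDR p of 0.411 in edgeR's quasi-likelihood test missed the threshold. With litter as a block it was 0.22 with an FDR p of 0.392, which passed. It also passed when any of 7 libraries was left out, namely AGA CON replicate 2, AGA HF replicates 3 and 4, SGA CON replicates 4 and 6, and SGA HF replicates 1 and 2, with FDR p from 0.201 to 0.680 over the 24 fits. The size difference on the CON diet was 0.08 ± 0.07 in the fit with surrogate variables, but 0.21 ± 0.10 with litter as a block (edgeR FDR p 0.601), close to the 0.24 of the HF diet in that fit. Littermates differed by a mean of 0.21 ± 0.33 (SD) on the CON and 0.24 ± 0.13 on the HF diet. The CON mean leans on litter replicate 6, at 0.85, whose SGA piglet had the outlying 3318 CPM. The medians were 0.11 on the CON and 0.25 on the HF diet. The interaction, which tests whether the size difference depended on diet, was 0.19 ± 0.09 with an unadjusted p of 0.0504 and an FDR p of 0.738, and 0.02 ± 0.14 with litter as a block (FDR p 0.983). A dependence on diet was therefore not shown for SHANK1. Within the cohorts the interaction had opposite signs, 0.17 in the first and −0.19 in the second.

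The other SHANK genes were not called in any contrast. SHANK3 had lowest, median and highest values of 49.2, 56.3 and 73.3 CPM in AGA CON and 34.6, 62.5 and 67.2 CPM in SGA CON. It had 45.8, 50.1 and 67.9 CPM in AGA HF and 53.9, 56.0 and 64.7 CPM in SGA HF, and all groups overlapped. The size difference was 0.05 ± 0.06 (SE), with a 95% interval from −0.06 to 0.16. SGA CON replicate 6, the highest of 24 for SHANK1, was the lowest for SHANK3. SHANK2, with a median of 1.91 CPM, ranged from 0.385 CPM in an AGA CON to 3.17 CPM in an SGA HF library. Its size difference was −0.07 ± 0.25, with a 95% interval from −0.55 to 0.41 that leaves room for sizeable differences in either direction at this depth. Its sign depended on the model, with 0.34 ± 0.24 when litter was a block (FDR p 0.769) and 0.31 without surrogate variables. The SGA littermate was the higher in 8 of 12 litters, by a mean of 0.33 ± 0.69 (SD).

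The remaining scaffold genes did not pass the test for size or diet either. DLG4 had medians of 516 (AGA) and 532 CPM (SGA) on the CON diet and of 482 and 532 CPM on the HF diet, and its size difference was 0.06 ± 0.04. Its 2 lowest libraries, at 361 and 400 CPM, were the AGA libraries with the lowest neuronal marker sums, AGA CON replicate 2 and AGA HF replicate 4. DLGAP1, which joins DLG4 to SHANK proteins, had medians of 182 (AGA) and 198 CPM (SGA) on the CON diet, 193 and 188 CPM on the HF diet, and a size difference of 0.08 ± 0.05. Its lowest values, 126 and 141 CPM, came from the same pair of libraries. SIPA1L1 was also lowest there, at 109 and 113 CPM. SGA CON replicate 6 was the highest of 24 for DLG4 (590 CPM) and DLGAP1 (221 CPM). Without these 3 libraries the size differences of DLG4, DLGAP1 and SIPA1L1 were 0.04, 0.03 and 0.03.

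HOMER1 had few reads and wide scatter. Its lowest, median and highest values were 0.596, 1.01 and 2.44 CPM in AGA CON and 0.937, 2.34 and 2.85 CPM in AGA HF. They were 0.903, 2.37 and 3.90 CPM in SGA CON and 0.829, 2.06 and 4.13 CPM in SGA HF. AGA CON had the lowest median, and all 4 groups overlapped. The size difference was 0.04 ± 0.20 (SE), and the SGA littermate was the higher in 7 of 12 litters. Without surrogate variables the size difference was 0.55, and with litter as a block 0.53, and neither was called.

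**Figure D3:**
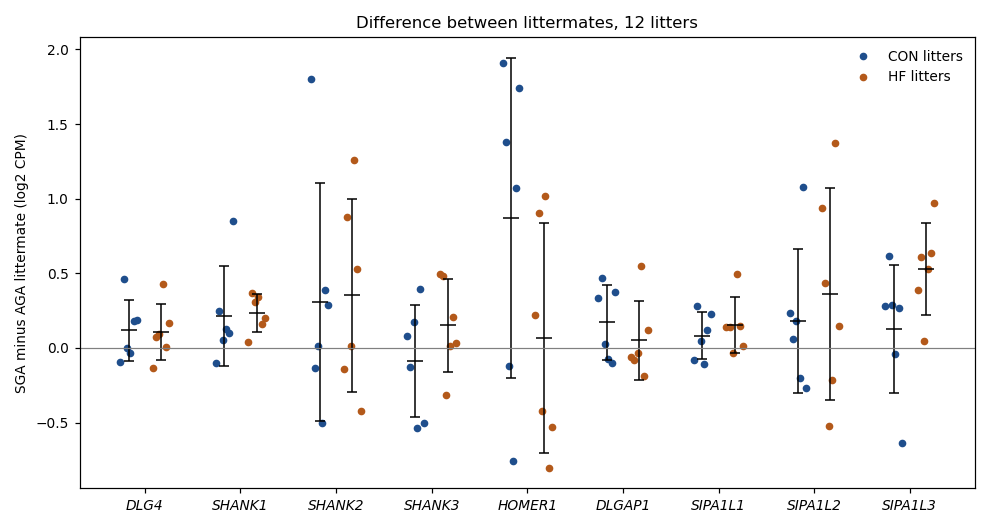
SGA minus AGA difference in log2 CPM within each of the 12 litters, in CON litters (blue) and HF litters (brown), with black bars for the mean ± SD of 6 litters. SHANK1 is above 0 in 11 of 12 and SIPA1L3 in 10 of 12 litters, and HOMER1 and SHANK2 have the widest scatter.

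Leaving out SIPA1L3, 0 of 8 genes were called for the main effect of size in edgeR's quasi-likelihood test, and 1 of 8, SHANK1, had an unadjusted p under 0.05. With DESeq2 1 of 8, again SHANK1, was called (203 of all genes), and with limma voom 0 of 8 (96 of all genes). The background in edgeR was 0.876% of 16326 genes called (143 genes) and 10.4% at an unadjusted p under 0.05. Of the 8 genes, 6 had a size difference above 0, with a median of 0.06, against 53.5% of all genes and a median of 0.01. With litter as a block 1 of 8 was called, SHANK1, where 395 genes were called in all. The SGA piglet was the higher in at least 10 of 12 litters for 1 of the 8, SHANK1, and for 4.43% of all genes tested.

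The diet comparison asked whether the HF formula changed these genes. None of the 9 was called for the main effect of diet, beside a background of 0.294%, and DESeq2 and limma voom called 0 as well. Both piglets of a litter had the same diet and these fits have no litter term, so their SE and p values may be too small. A fit on litter sums called 0 of 16326 genes for diet. SHANK1 alone had an unadjusted p under 0.05 (background 7.05%), with a difference of −0.12 ± 0.05 (SE) and an FDR p of 0.645. It was called in 1 of 24 fits, without SGA CON replicate 4 (FDR p 0.371). The values ran from −0.15 ± 0.23 for SHANK2 to 0.39 ± 0.20 for HOMER1. SIPA1L3 had −0.12 ± 0.08, with a 95% interval from −0.28 to 0.05. Within the cohorts HOMER1 had 0.71 and −0.07.

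In AGA piglets alone, 3 of 9 genes had an unadjusted p under 0.05 for diet, and none was called (background 0.178% called and 6.07% at the unadjusted p). SHANK1 was at −0.21 ± 0.07 (FDR p 0.509), SIPA1L3 at −0.25 ± 0.12 (FDR p 0.736) and HOMER1 at 0.78 ± 0.28 (FDR p 0.583). DESeq2 called SHANK1 in this comparison (FDR p 0.364), where it called 57 of all genes. Without AGA CON replicate 2, edgeR called SHANK1 and SIPA1L3, with FDR p of 0.363 and 0.247. SHANK1 was also called without AGA HF replicate 3, AGA HF replicate 6, SGA CON replicate 4 or SGA HF replicate 1. This comparison shares the AGA HF libraries with the size comparison on the HF diet, so the SHANK1 and SIPA1L3 values in the 2 are not independent. SIPA1L3 was chosen on size differences from these same libraries. Its p values and its call here are therefore not independent of that choice. In SGA piglets alone 0 of 9 were called and 0 of 9 had an unadjusted p under 0.05 (background 0.184% and 5.30%), and DESeq2 also called 0. SHANK1 was there at −0.03 ± 0.07, SIPA1L3 at 0.01 ± 0.11 and HOMER1 at −0.0037 ± 0.26.

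None of the 9 genes was called for the size by diet interaction, beside a background of 0.123%, and DESeq2 and limma voom called 0 as well. In the fit with surrogate variables HOMER1 alone had an unadjusted p under 0.05 (background 4.03%), at 0.0425, with −0.79 ± 0.36 (SE) and an FDR p of 0.716. HOMER1 had −0.89 ± 0.54 with litter as a block and an unadjusted p of 0.117 in edgeR, and the gene under 0.05 was SIPA1L3, at 0.0433. The block fit called 42 of all genes for the interaction, and its share of all genes under 0.05 is not given. SIPA1L3 had 0.26 ± 0.16 and an FDR p of 0.804, and with the block 0.40 ± 0.18 and an FDR p of 0.605, so its larger difference on the HF diet, 0.48 against 0.23, was not shown to differ between diets. The interaction compares the size differences on which SIPA1L3 was chosen, so its p values are not independent of that choice. In the first cohort the SIPA1L3 interaction was −0.06 and in the second 0.82. On the CON diet 0 of 8 genes other than SIPA1L3 were called for size and 0 had an unadjusted p under 0.05, beside a background of 0.257% and 6.49%, and DESeq2 called 0 as well. The litter block fit called 0 of 8 there, and 2 of 8 had an unadjusted p under 0.05, namely HOMER1 (0.98 ± 0.39, edgeR FDR p 0.537) and SHANK1. That fit called 192 of all genes in this contrast, against 42 in the fit with surrogate variables. Its share of all genes under 0.05 is not given, so the 2 of 8 cannot be set beside the 6.49%.

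**Figure D4:**
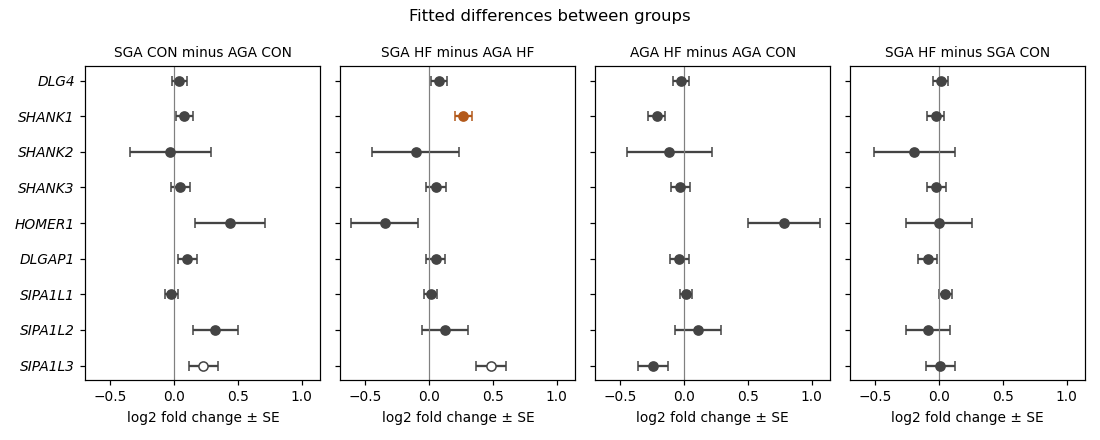
Fitted log2 fold change ± SE of the 9 genes in the 4 comparisons between groups of 6 piglets. The brown point is the one called (SHANK1, SGA HF minus AGA HF, 0.27), open points are the SIPA1L3 values for which the gene was chosen, and the AGA HF group is part of both middle panels.

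Of 30 other postsynaptic scaffold genes, 29 were tested, and 1 was called higher and 0 lower for size (background 0.662% called higher). This was LZTS3 (ProSAPiP1), which binds SHANK proteins and SIPA1L proteins and so joins the 2 families described here. LZTS3 ranged from 376 to 565 CPM with a median of 484 in AGA piglets, and from 491 to 614 CPM with a median of 533 in SGA piglets. The size difference was 0.16 ± 0.04 (SE) with an edgeR FDR p of 0.333, and the SGA littermate was the higher in 9 of 12 litters. With litter as a block the FDR p was 0.483, which ends the call. The call was also lost without any of 11 libraries: AGA CON replicates 1, 4, 5 and 6, AGA HF replicates 1 and 5, SGA CON replicates 1, 3 and 5, and SGA HF replicates 4 and 5 (FDR p from 0.158 to 0.636 over the 24 fits). Within the cohorts it was 0.08 and 0.24. Of the 29, 19 were above 0 for size (53.5% of all genes), with a median of 0.04. None of the 29 was called for diet, for the interaction or in the 4 comparisons between groups. This list and those below were chosen with earlier results of these data known. Setting them beside all genes is therefore a description and no test.

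Of 33 regulators of Rap and of spine GTPases, 33 were tested, and 2 were called higher and 0 lower for size, beside 0.662% of all genes called higher. As the list was chosen with earlier results known, this share is no test of it. Those called higher included IQSEC2, an exchange factor for Arf GTPases at excitatory synapses. It had medians of 361 CPM in AGA and 411 CPM in SGA piglets, ranges of 268 to 411 and 358 to 518 CPM that overlapped, and a difference of 0.17 ± 0.04 (SE) with an edgeR FDR p of 0.326. The SGA littermate was the higher in 11 of 12 litters. Its FDR p with litter as a block was 0.211. The call was lost without any of AGA CON replicates 1, 3, 4, 5 and 6, AGA HF replicates 1 and 5, SGA CON replicates 1, 3 and 5, and SGA HF replicates 4, 5 and 6, with FDR p from 0.142 to 0.627 over the 24 fits. Within the cohorts the difference was 0.13 and 0.31.

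IQSEC2 was also called between the HF groups (background 0.527% called higher). It had 281 to 399 CPM in AGA HF and 369 to 433 CPM in SGA HF, a difference of 0.25 ± 0.06 (FDR p 0.257, and 0.355 with litter as a block). This call was lost without any of AGA CON replicates 1, 4 and 6, SGA CON replicates 3 and 5, and SGA HF replicates 4, 5 and 6 (highest FDR p 0.600). IQSEC3, a related exchange factor known from inhibitory synapses, was called lower in AGA HF than in AGA CON (background 0.178% called in either direction). Its medians there were 513 and 599 CPM, with a difference of −0.28 ± 0.07 (edgeR FDR p 0.333). Its call was lost without any of AGA CON replicates 1, 3, 4 and 5, SGA CON replicates 3 and 5, and SGA HF replicates 4, 5 and 6 (FDR p up to 0.565). In that contrast 0 of all genes were called without surrogate variables, and 0 with FDR over each contrast alone. Of the 33 regulators, 23 were above 0 for size, with a median of 0.06, against 53.5% of all genes and a median of 0.01. No regulator was called for the main effect of diet, for the interaction, for size on the CON diet or for diet in SGA piglets.

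Of 26 postsynaptic adhesion molecules, 21 were tested and none was called in any of the 7 contrasts. For size 1 of 21 had an unadjusted p under 0.05, beside 10.4% of all genes, and 15 were above 0 with a median of 0.05, beside 53.5% of all genes. The smallest unadjusted p belonged to EPHB2, an ephrin receptor of spines, with medians of 20.0 CPM in AGA and 22.3 CPM in SGA piglets and a difference of 0.21 ± 0.07 (FDR p 0.568, but 0.278 to 0.751 over the 24 fits, with a call without AGA HF replicate 2 or 6). Next was LRFN2, an adhesion protein that binds DLG4, with 50.4 and 50.7 CPM and a difference of 0.09 ± 0.05 (FDR p 0.796). The lists share no gene with the 9.

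**Figure D5:**
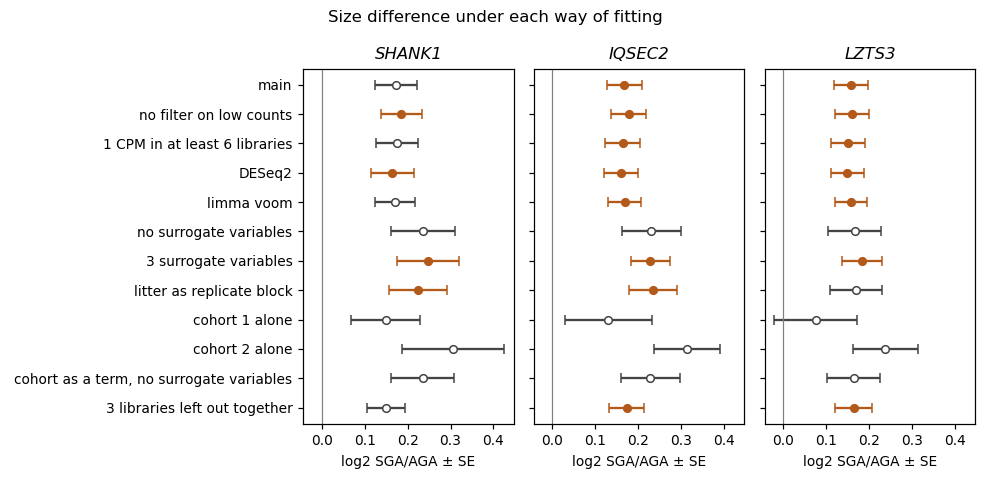
Fitted size difference (log2 SGA over AGA ± SE) of SHANK1, IQSEC2 and LZTS3 under 12 ways of fitting, with filled points below the FDR threshold of 0.4 and open points above it. All values lie above 0, with LZTS3 in the first cohort the lowest at 0.08, and no gene is called in either cohort alone.

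Over the 24 libraries, the genes most like SIPA1L3 among 8000 compared (mean of at least 10 CPM) were STUM (Pearson's r = 0.79), the transcription factor BHLHE22 (0.79), the cadherin CELSR3 (0.79), the nucleoporin POM121C (0.78) and AGAP2 (0.78). Within the cohorts these 5 correlations ranged from 0.76 to 0.86. With the means of the 4 groups removed they ranged from 0.62 to 0.72. By Pearson's r likeness to DLG4 was closer, with 0.93 for DPP6, a potassium channel subunit, 0.92 for DMTN, an actin-binding protein, and 0.91 for CACNB1, a calcium channel subunit. With the group means removed these were 0.90 to 0.92. By rank (Spearman) they were 0.79, 0.81 and 0.77, against 0.63 to 0.82 for the 5 genes like SIPA1L3. DLG4 correlated at 0.88 with the neuronal marker sum, and at 0.46 without the 3 libraries that stood apart. These are descriptions over libraries that share groups, cohorts and tissue composition, and 17.2% of the genes compared had a correlation above 0.5 with DLG4 against 3.52% with SIPA1L3.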

How the data were processed

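The libraries came from a stranded polyadenylated RNA protocol. Per the labels and methods, the authors trimmed reads with Trimmomatic 0.33, aligned them with STAR 2.5.2a to Sscrofa10.2 and counted reads on exons per Entrez gene with featureCounts (Subread 1.5.0), using strand. The deposited files hold these whole-number read counts, without filtering or normalization. The entry without an identifier, 0.613% to 1.62% of counts, was left out. An Sscrofa11.1 gene table supplied the symbols (23036 identifiers matched, 15993 with a symbol). Each sequence took the chromosome number that most of its genes have in that table, and coordinates are from the files.

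Counts were scaled by TMM in edgeR 4.0.16 (R 4.3.3). CPM uses TMM library sizes, and RPKM divides it by counted exon length. The 16326 genes that reached 1 CPM in 3 or more libraries were fitted by glmQLFit and glmQLFTest on groups, sex and 5 surrogate variables (sva 3.50.0, log2 CPM with a prior count of 2). Fold changes are per main effect, interaction or pair of groups. Benjamini-Hochberg adjustment covered all 7 contrasts (FDR p), and genes below 0.4 were called. Intervals named 95% are 1.96 SE to each side and are somewhat narrower than the quasi-likelihood test implies. For the SHANK1 interaction such an interval runs from 0.01 to 0.36, although the unadjusted p of that test was 0.0504. At these depths 3 counts equal 0.323 to 0.499 CPM, and this covers counting error only.

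The members and lists were chosen with earlier results of these data known. All members are named. From each list, genes called in any contrast are named, up to 4 per contrast by size of difference, or the 2 with the smallest unadjusted p for size. The result of 1 list gene is not reported here. Likeness names the 5 genes closest to SIPA1L3 and the 3 closest to DLG4. Littermates share a litter in the labels. Over all tested genes, their deviations from the group means correlated with a mean of 0.154 (0.0143 to 0.329), above 0.1 in 9 of 12 pairs. Alternatives used DESeq2 1.42.0, limma 3.58.1 (voom), other filters, scalings and covariates, litter as a block, each cohort, and each library left out. Scripts were tested on simulated data. Nothing states whether any of the 12 pairs shared a sow with another pair, so they may not all be separate litters.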

Additional observations from a re-analysis of the deposited data

Results flagged for a closer look

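In 5 of 60 groups of 6 libraries (the members and the named list genes, 4 groups each), the highest or lowest library lay apart from the others by Dixon's test, which chance does in about 1 of 20 groups. DLG4 was low in AGA CON replicate 2 at 361 CPM, the library with the lowest neuronal marker sum, and in SGA HF replicate 1 at 447 CPM. SHANK1 was high in SGA CON replicate 6 at 3318 CPM, the library with the highest neuronal marker sum. IQSEC2 was low in AGA CON replicate 2 at 268 CPM, and EPHB2 was high in SGA HF replicate 6 at 27.5 CPM. The cause of these values was not tested.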

How the results depend on the processing

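The precision of the lowest genes, SHANK2 and HOMER1, is limited by their few counted reads. In the litter block fit (litter as a replicate block, no surrogate variables) the size count of called members was 1, as it was without a filter on low counts, with DESeq2, with 3 surrogate variables and with FDR over each contrast alone. The called gene was SHANK1 each time, and the count was 0 in the reported fit. Between the HF groups the count of 1 went to 0 without surrogate variables, with 3 of them, with the litter block, in cohort 1, in cohort 2, and with cohort as a term. In each cohort alone 0 of all genes were called between the HF groups. DESeq2 gave 1 for AGA HF against AGA CON. Leaving out 1 library in turn, counts ran from 0 to 1 for size, 0 to 1 for diet, 0 to 1 between the HF groups, and 0 to 2 for AGA HF against AGA CON. The litter block changed no other call of a member. It was not run for diet within AGA or within SGA piglets, whose litters differ, and diet was tested on litter sums, with 0 called. The alternative without AGA CON replicate 2, AGA HF replicate 4 and SGA CON replicate 6, chosen after seeing the data as were those on list genes and within group pairs, changed no count of called members.

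Signs that changed were all of uncalled values, and the cause was not tested. SHANK2 for size was 0.053 with limma voom, 0.31 without surrogate variables, 0.15 with 3, 0.34 with the litter block, 0.34 and 0.24 in cohorts 1 and 2, and 0.31 with cohort as a term. SHANK3 for size was −0.0059 with 3 surrogate variables and −0.063 in cohort 2. SIPA1L1 for size was 0.0053 without a filter, 0.11 without surrogate variables, 0.071 with 3, 0.12 with the litter block, 0.079 and 0.13 in cohorts 1 and 2, 0.11 with cohort as a term, and 0.028 without the 3 libraries. HOMER1 for diet was −0.072 in cohort 2. The interaction was −0.00018 without surrogate variables and −0.19 in cohort 2 for SHANK1, and −0.062 in cohort 1 for SIPA1L3. Leaving out single libraries, size ran from −0.29 to 0.22 for SHANK2, −0.10 to 0.16 for HOMER1 and −0.024 to 0.075 for SIPA1L1.

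Over all genes, 143 were called for size, against 10 without surrogate variables, 408 with 3, 395 with the litter block, 1210 with FDR over each contrast alone, 62 with cohort as a term, and 0 in each cohort. Between the HF groups it was 97, against 3 to 367 in these fits of all 24 libraries. It was 48 for diet (0 to 115), 20 for the interaction (0 to 42), 42 for size on the CON diet (1 to 192), 29 for diet in AGA (0 to 81) and 30 for diet in SGA piglets (2 to 56).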
